A study of Homo sapiens with 12 samples.

Results

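The genes described here are 7 members of the epidermal growth factor (EGF) receptor circuit: the ligands HBEGF, AREG, EREG and TGFA, the receptor EGFR, and the feedback inhibitors ERRFI1 and LRIG1. They were chosen by gene name and are 7 of the 20263 genes in the count table. RNA was sequenced from A375, an established human melanoma cell line with an activating BRAF mutation, labelled as wild type in genotype in every library. The 4 treatment groups were compared with 3 libraries each: untreated cells (Ctrl), cells given DdBIC (written DBIC in the labels), cells given hemin (Hemin), and cells given both agents (DdBIC+Hemin). DdBIC is a compound that binds the orphan nuclear receptor Nur77 and was studied for its induction of pyroptosis, a lytic form of cell death. Hemin is a source of heme, given alone or together with DdBIC. The comparisons therefore ask how the RNA of the EGF receptor circuit differed after DdBIC, and how it differed when hemin was added. The dose and duration of the sequenced treatments were not given in the sources used here, and the study's methods state that serum was lowered while cells were exposed to DdBIC. All groups come from 1 cell line, and the labels do not say whether the 3 libraries of a group are separate cultures, while the study's general statement on independent experiments does not name these libraries, so p-values measure only the spread between these libraries, which may be technical.

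HBEGF, AREG, EREG and TGFA are made as membrane-anchored precursors that metalloproteases such as ADAM17 cut free, and the freed ligands bind EGFR, a receptor tyrosine kinase that signals through RAS and ERK. Several ligand genes are themselves transcribed in response to ERK and to cell stress, so the circuit can feed forward. ERRFI1 (also called MIG6) binds and blocks the EGFR kinase domain and is induced by the signal it limits, while LRIG1 is a transmembrane protein that promotes loss of the receptor from the cell surface.

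Total counts ran from 37951275 to 44358912 per library, so 3 counts equal at most 0.0790 CPM (counts-per-million). Of the 20263 genes, 14287 passed a filter on low counts and were tested, and 6 of the 7 genes were among them. The correlation of log2 CPM across genes was 0.985 to 0.988 between libraries of a group. HMOX1, the heme-degrading enzyme that hemin induces, was at 8.71 ± 0.632 CPM in Ctrl, 7.82 ± 0.795 CPM after DdBIC, 63.2 ± 2.0 CPM after Hemin and 169 ± 21.4 CPM after both agents (mean ± SD, n = 3 for each group, here and throughout). Of 8 melanocyte lineage markers, 3 (SOX10, MITF and S100B) had a mean over the 12 libraries above 1 CPM, and the pigment genes PMEL, MLANA, TYR, TYRP1 and DCT had a mean below it, with PMEL at up to 1.11 CPM in a DdBIC library. The summed level of these 8 markers was 643 to 670 CPM in Ctrl, 736 to 797 CPM after DdBIC, 571 to 578 CPM after Hemin and 577 to 667 CPM after both agents, and its part in the results below was not tested. Nearly all of that sum was SOX10 (mean 634 CPM in Ctrl and 741 CPM after DdBIC), while S100B went the other way (9.47 CPM in Ctrl, 7.38 CPM after DdBIC and 11.8 CPM after Hemin). Of 5 keratinocyte and other epithelial markers only KRT14 had such a mean above 1 CPM, with a sum of 2.69 to 4.21 CPM over all libraries, and KRT1 was at 0. None of 3 immune markers had a mean over the 12 libraries above 1 CPM, with PTPRC at 0 in every library. Their sum, nearly all of it CD14, was 0.409 to 1.04 CPM in Ctrl, 0.812 to 1.30 CPM after DdBIC, 0.607 to 0.863 CPM after Hemin and 0.696 to 1.19 CPM after both agents. Neither endothelial marker (PECAM1, CDH5) passed 1 CPM in any library, with a sum of 0.358 to 0.670 CPM in Ctrl, 0.922 to 1.24 CPM after DdBIC, 0.575 to 0.784 CPM after Hemin and 0.963 to 1.74 CPM after both agents.

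With DdBIC, 5 of the 6 tested genes rose: AREG, ERRFI1, HBEGF, EGFR and TGFA, in falling order of size. The same 5 were lower with DdBIC+Hemin than with DdBIC alone, 3 of them (AREG, HBEGF and ERRFI1) still above Ctrl. A gene was called when its adjusted p (edgeR quasi-likelihood test, Benjamini-Hochberg over all 14287 genes) was below 0.05. In DdBIC against Ctrl 5 of 6 members were called, all higher, where 37.2% of all tested genes were called and 20.0% were called higher. The libraries of those 2 groups did not overlap for any of the 6 tested members, and did not overlap for 50.0% of all tested genes. The median log2 difference of the 6 members was 0.83, beside -0.0082 over all tested genes. In bulk RNA a change in the mix of cells and a change in RNA per cell cannot be told apart.

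**Figure D1:**
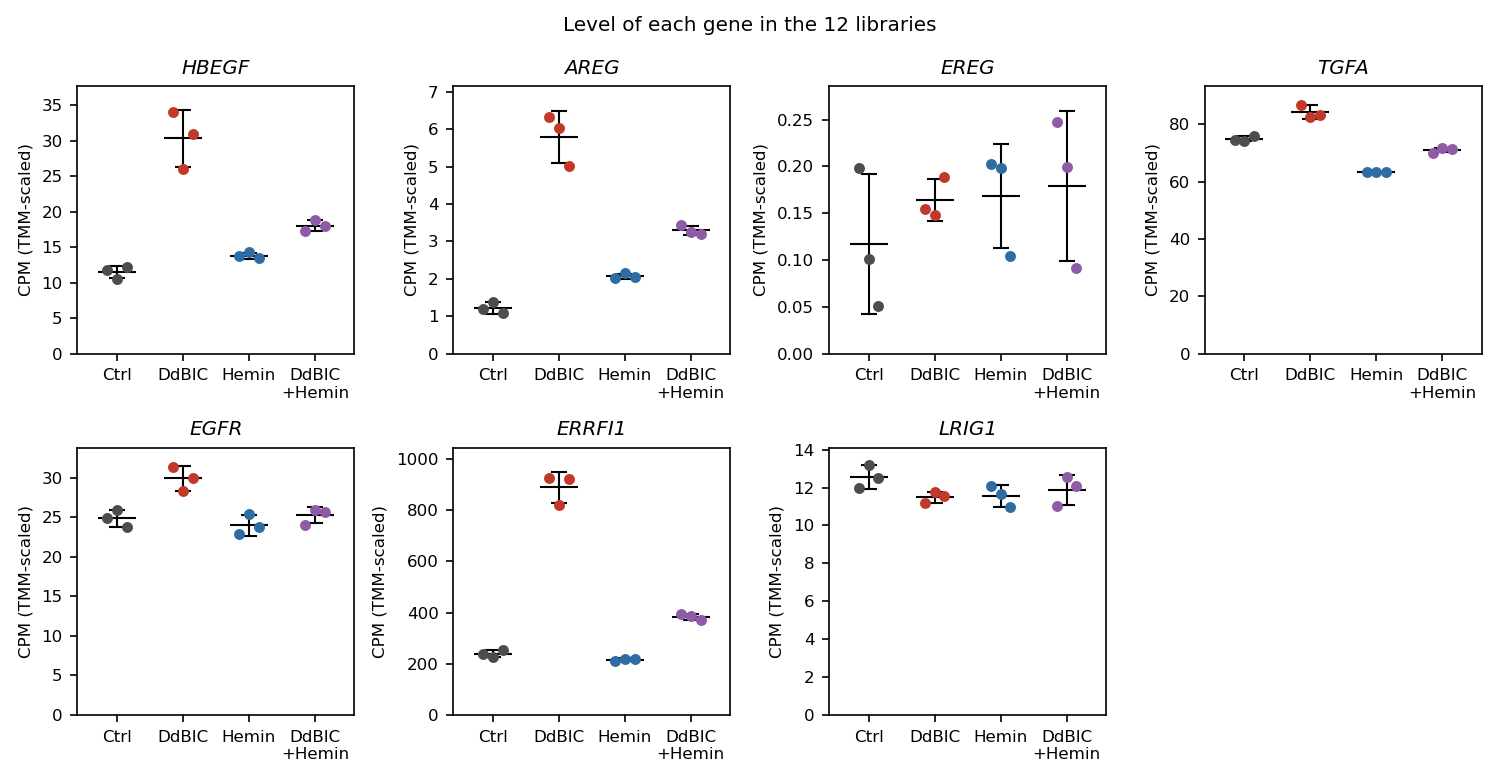
CPM (vertical axis, linear, from 0) of each of the 7 genes in each of the 12 libraries, grouped as Ctrl, DdBIC, Hemin and DdBIC+Hemin, with 1 dot per library, the group mean as a dash and the SD as bars. HBEGF, AREG and ERRFI1 were highest in the 3 DdBIC libraries and lay between Ctrl and DdBIC in the libraries given both agents, while EREG did not pass 0.247 CPM in any library.

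When hemin was added to DdBIC, 5 of 6 members were called lower than with DdBIC alone, where 31.9% of all tested genes were called and 18.4% were called lower. The groups did not overlap for these 5 members (44.2% of all tested genes), and the median log2 difference of the 6 was -0.50, beside -0.010 over all genes. With Hemin alone against Ctrl, 1 member (AREG) was called higher and 1 (TGFA) lower, where 4.06% of genes were called, 1.47% higher and 2.59% lower. The groups did not overlap for 4 members (HBEGF, AREG, TGFA and ERRFI1) beside 25.1% of all genes. With both agents against Ctrl, 3 members were called higher and 0 lower, where 12.4% of genes were called, 5.66% higher and 6.74% lower. The groups did not overlap for 4 members (HBEGF, AREG, TGFA and ERRFI1), beside 31.0% of all genes. With both agents against Hemin, 4 members were called higher and 0 lower, where 6.80% of genes were called, 3.71% higher and 3.09% lower, and the same 4 (HBEGF, AREG, TGFA and ERRFI1) did not overlap between the groups, beside 26.3% of all genes. These comparisons share control libraries and are therefore given side by side.

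**Figure D2:**
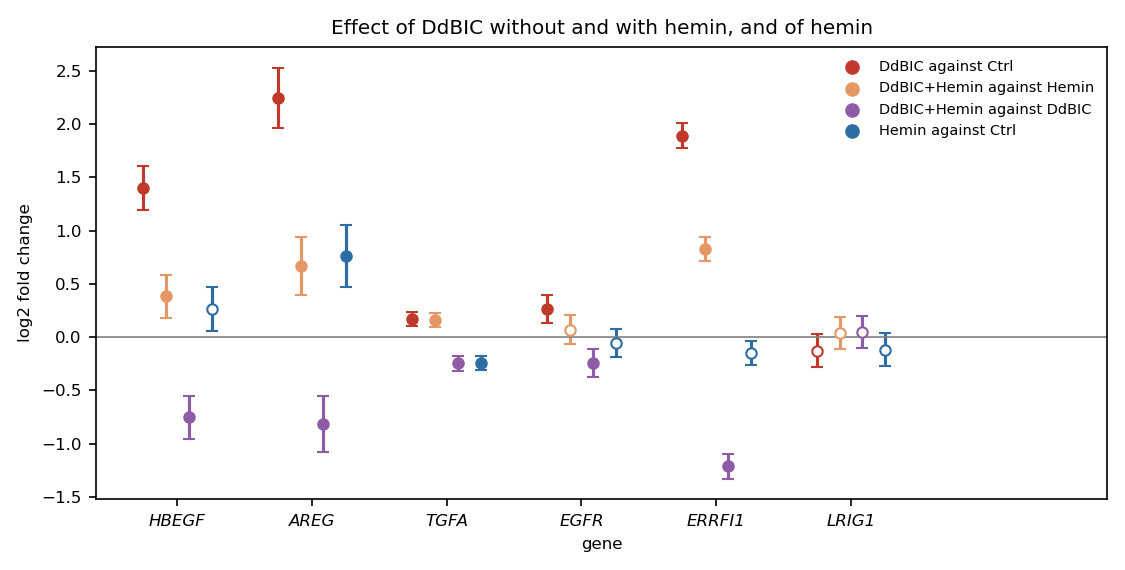
Log2 fold change (vertical axis) with its 95% interval for the 6 tested genes in 4 comparisons, filled where the edgeR adjusted p was below 0.05. AREG, ERRFI1 and HBEGF lie farthest from 0 after DdBIC, at 2.25, 1.89 and 1.40, and LRIG1 is not filled in any comparison.

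Among the ligands, HBEGF, whose membrane precursor is also the receptor for diphtheria toxin, is encoded on the minus strand at chr5:140332843-140346631 (GRCh38, ENSG00000113070) and overlaps no other gene of GENCODE 29. HBEGF was at 11.7, 10.6 and 12.1 CPM in the Ctrl libraries and at 34.0, 26.0 and 30.9 CPM with DdBIC. With Hemin HBEGF was at 13.7, 14.2 and 13.4 CPM, and with both agents at 17.3, 18.8 and 17.9 CPM. The 4 groups of HBEGF values did not overlap, in the order Ctrl, Hemin, DdBIC+Hemin and DdBIC. The DdBIC difference was a 2.64-fold rise (log2 1.40, SE 0.093, edgeR adjusted p = 6.72e-07). Adding hemin to DdBIC lowered HBEGF 1.68-fold (log2 -0.75, SE 0.091, edgeR adjusted p = 0.000100). With both agents it stayed 1.57-fold above Ctrl (log2 0.65, edgeR adjusted p = 0.000938). The neighbours Ctrl and Hemin in that order were not told apart by the test, although their libraries did not overlap (log2 0.27, 95% interval 0.062 to 0.47, edgeR adjusted p = 0.162). HBEGF was 1.31-fold higher with both agents than with Hemin (log2 0.39, SE 0.092, edgeR adjusted p = 0.0299). That call was lost when any 1 of the 3 Hemin or 3 DdBIC+Hemin libraries was left out, with a log2 difference of 0.35 to 0.41 and an adjusted p of 0.0585 to 0.101.

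AREG, or amphiregulin, a heparin-binding EGFR ligand, lies on the plus strand at chr4:74445134-74455009 (ENSG00000109321) with no overlapping gene. It was at 1.19, 1.39 and 1.07 CPM in Ctrl and at 6.33, 6.03 and 5.01 CPM with DdBIC. With Hemin AREG was at 2.02, 2.15 and 2.04 CPM, and with both agents at 3.43, 3.26 and 3.19 CPM. The order of the 4 groups was that of HBEGF, with no overlap, and the test told each neighbour in the order from the next. These are low levels: AREG had 42 to 55 counts per Ctrl library and 212 to 246 per DdBIC library. The 4.75-fold rise with DdBIC (log2 2.25, SE 0.13, edgeR adjusted p = 2.20e-07) was the largest among the 6 tested members. With both agents AREG was 1.76-fold lower than with DdBIC (log2 -0.81, SE 0.12, edgeR adjusted p = 0.000390) and 2.70-fold above Ctrl (log2 1.43, adjusted p = 4.02e-05). AREG was the 1 member called higher with Hemin alone, by 1.70-fold (log2 0.77, SE 0.13, edgeR adjusted p = 0.00804), and this call was lost in a fit of only the 6 Ctrl and Hemin libraries (adjusted p = 0.0526). DdBIC raised it 1.59-fold in the presence of hemin (log2 0.67, SE 0.12, edgeR adjusted p = 0.00844).

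TGFA, transforming growth factor alpha, lies on the minus strand at chr2:70447280-70554015 (ENSG00000163235) with the intronic transcript TGFA-IT1 inside it, which shares 0 exon bases with it. TGFA was at 74.7, 74.2 and 76.0 CPM in Ctrl and at 86.9, 82.6 and 83.2 CPM with DdBIC. With Hemin it was at 63.2, 63.4 and 63.4 CPM, and with both agents at 70.1, 71.6 and 71.4 CPM. The groups did not overlap but stood in another order than those of HBEGF and AREG, rising from Hemin through DdBIC+Hemin and Ctrl to DdBIC. The rise with DdBIC was small, 1.12-fold (log2 0.17, SE 0.030, edgeR adjusted p = 0.00116). Hemin alone lowered TGFA 1.18-fold (log2 -0.24, SE 0.030, edgeR adjusted p = 0.00127), and hemin added to DdBIC lowered it 1.19-fold (log2 -0.25, adjusted p = 0.000108). With both agents against Hemin it was 1.12-fold higher (log2 0.17, edgeR adjusted p = 0.00770). The neighbours DdBIC+Hemin and Ctrl were not told apart (log2 -0.078, 95% interval -0.14 to -0.011, edgeR adjusted p = 0.129).

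EREG, or epiregulin, is encoded 56382 bases before AREG on the same strand, at chr4:74365143-74388751 (ENSG00000124882). It had 8, 4 and 2 counts in the Ctrl libraries, 6, 6 and 8 with DdBIC, 8, 8 and 4 with Hemin, and 10, 8 and 4 with both agents. Its mean was 0.117 ± 0.0750 CPM in Ctrl and 0.164 ± 0.0222 CPM with DdBIC, within the spread of the libraries. EREG did not pass the filter on low counts. Fitted without that filter, the log2 difference of DdBIC from Ctrl was 0.47 with a 95% interval of -0.89 to 1.83 (edgeR adjusted p = 0.634), so at this depth neither a rise of the size of HBEGF nor a fall could be told from no change.

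The deposited transcripts-per-million (TPM) are scaled for length and allow levels to be set side by side between genes. In Ctrl the TPM level was 44.7 ± 1.58 for TGFA, 9.99 ± 0.743 for HBEGF, 2.01 ± 0.250 for AREG and 0.0521 for EREG. TGFA was thus the most abundant ligand RNA of the 4, and it remained so in every group. TGFA made up 78.8 ± 0.113% of the summed TPM of the 4 ligands in Ctrl, 57.7 ± 1.93% after DdBIC, 70.6 ± 0.682% after Hemin and 66.1 ± 0.319% after both agents. The share of HBEGF was 17.6 ± 0.700% in Ctrl and 30.8 ± 2.56% after DdBIC, against 22.7 ± 0.476% after Hemin and 24.9 ± 0.657% after both agents. The share of AREG was 3.56 ± 0.574% in Ctrl and 11.4 ± 1.26% with DdBIC, with 6.54 ± 0.218% and 8.84 ± 0.457% after Hemin and both agents. The summed TPM of the ligands was 56.7 ± 2.08 in Ctrl and 85.6 ± 4.95 after DdBIC, against 52.4 ± 0.880 after Hemin and 61.6 ± 1.34 after both agents, so the lower share of TGFA with DdBIC came with a larger sum.

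**Figure D3:**
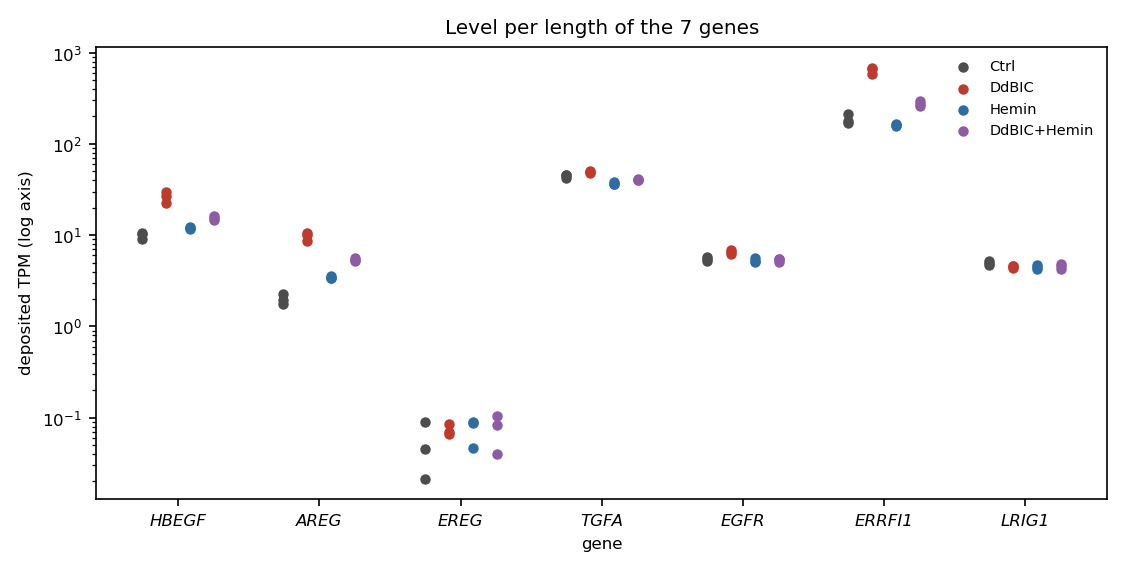
Deposited TPM (log axis) of each of the 7 genes in each library, coloured by group. ERRFI1 is the most abundant RNA, at a mean of 187 TPM in Ctrl and 642 TPM with DdBIC, TGFA is the leading ligand in every library, and EREG lies lowest.

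EGFR, the receptor of the 4 ligands, is encoded on the plus strand at chr7:55019021-55211628 (ENSG00000146648), where the antisense gene EGFR-AS1 shares 186 exon bases with it. Use of strand in counting was not stated, so reads from those bases cannot be told apart. EGFR was at 24.9, 26.0 and 23.8 CPM in Ctrl and at 31.4, 28.3 and 30.0 CPM with DdBIC. It was at 22.8, 25.4 and 23.8 CPM with Hemin and at 24.1, 26.0 and 25.7 CPM with both agents. The DdBIC libraries alone stood apart, and the other groups overlapped one another. The rise with DdBIC was 1.20-fold (log2 0.27, SE 0.060, edgeR adjusted p = 0.00485), and EGFR was 1.18-fold lower with both agents than with DdBIC (log2 -0.24, SE 0.060, edgeR adjusted p = 0.00921). With both agents it differed from Ctrl by log2 0.021 (edgeR adjusted p = 0.877), a value whose sign turned when libraries were scaled by their totals only. The log2 difference was -0.051 for Hemin against Ctrl (edgeR adjusted p = 0.752) and 0.072 for both agents against Hemin (95% interval -0.060 to 0.20, adjusted p = 0.572). Per length, EGFR RNA was at 5.48 ± 0.259 TPM in Ctrl and 6.54 ± 0.297 TPM with DdBIC, below TGFA, HBEGF and ERRFI1 in both groups. It lay above AREG in Ctrl (2.01 TPM) and below AREG with DdBIC (9.79 TPM).

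Of the feedback inhibitors, ERRFI1 is encoded on the minus strand at chr1:8004404-8026308 (ENSG00000116285). The antisense gene AL034417.4 shares 155 exon bases with it, and since use of strand in counting was not stated, reads from those bases cannot be told apart. ERRFI1 was at 239.5, 226 and 253 CPM in Ctrl and at 926, 819 and 919.7 CPM with DdBIC. It was at 210.1, 219 and 218 CPM with Hemin and at 393, 388 and 370.1 CPM with both agents. The DdBIC libraries stood far above the rest and the libraries with both agents above Ctrl, with no overlap between any of the 4 groups. The DdBIC rise was 3.71-fold (log2 1.89, SE 0.054, edgeR adjusted p = 8.32e-10), and adding hemin lowered the level 2.31-fold (log2 -1.21, SE 0.052, edgeR adjusted p = 3.63e-08). With both agents ERRFI1 was 1.60-fold above Ctrl (log2 0.68, edgeR adjusted p = 1.17e-05) and 1.78-fold above Hemin (log2 0.83, adjusted p = 6.40e-06). Hemin alone and Ctrl, the lowest neighbours, were not told apart by the test (log2 -0.15, 95% interval -0.26 to -0.036, edgeR adjusted p = 0.159). Per length, ERRFI1 RNA was the most abundant of the 7 at 187 ± 23.3 TPM in Ctrl and 642 ± 56.5 TPM with DdBIC, and its ratio of count to TPM varied 1.19-fold over the libraries, more than that of any other member (1.01 to 1.07).

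LRIG1 is encoded on the minus strand at chr3:66378797-66501011 (ENSG00000144749), and shares 907 exon bases with the protein-coding gene SLC25A26 on the other strand. As for ERRFI1, reads from the shared bases cannot be told apart, and their part in the LRIG1 values below was not tested. LRIG1 was at 11.96, 13.2 and 12.5 CPM in Ctrl and at 11.2, 11.8 and 11.5 CPM with DdBIC. With Hemin it was at 12.1, 11.6 and 11.0 CPM, and with both agents at 11.0, 12.6 and 12.1 CPM. All DdBIC values lay below all Ctrl values by a narrow margin and the other groups overlapped. The DdBIC difference was not called (log2 -0.13, 95% interval -0.28 to 0.026, edgeR adjusted p = 0.181). The interval leaves out a rise of the size seen for EGFR, TGFA or ERRFI1. In the other comparisons the log2 difference of LRIG1 ran from -0.12 with Hemin to 0.048 with both agents against DdBIC, none called (edgeR adjusted p = 0.454 and 0.653).

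Whether hemin changed the effect of DdBIC itself was tested as the DdBIC difference with hemin minus that without it. In this interaction 3 of 6 members were called, all lower, where 16.6% of all tested genes were called, 6.40% higher and 10.2% lower. The value was -1.02 log2 units for HBEGF (SE 0.13, 95% interval -1.30 to -0.73, edgeR adjusted p = 0.000323). For AREG it was -1.58 (SE 0.18, 95% interval -1.97 to -1.19, edgeR adjusted p = 0.000142), the largest of the members. For ERRFI1 it was -1.06 (SE 0.074, 95% interval -1.22 to -0.90, edgeR adjusted p = 4.00e-06). The DdBIC effect on these 3 genes was therefore smaller in the presence of hemin, and still called above 0 there, with the limit given above for HBEGF. For TGFA the DdBIC rise was 1.12-fold both without and with hemin, with an interaction of -0.0031 (95% interval -0.097 to 0.091, edgeR adjusted p = 0.974), whose sign turned with the scaling. The interaction was -0.19 for EGFR (95% interval -0.38 to -0.0066, edgeR adjusted p = 0.158) and 0.17 for LRIG1 (-0.051 to 0.38, adjusted p = 0.306), neither called.

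The bases just before the transcription start are shown for the 3 members with the largest DdBIC differences, all of which rose with DdBIC and were lower when hemin was added. RefSeq (GRCh38.p14) gave promoter windows for all 7 genes, 12 windows in all, each from 250 bases before the start to 50 bases from it, of which the 250 bases before the start are printed. The search covered 5 motifs on both strands, with no overlap among the matches: the AP-1 site TGANTCA, the cAMP response element TGACGTCA, the EGR site GCGNGGGCG, the CArG box and the NF-kB site. Capitals mark a match. The AREG stretch, chr4:74444886-74445135 on the plus strand, holds 1 cAMP response element from -65 to -58 relative to the start, a motif found in 1.85% of 35116 windows of 300 bases.
AREG: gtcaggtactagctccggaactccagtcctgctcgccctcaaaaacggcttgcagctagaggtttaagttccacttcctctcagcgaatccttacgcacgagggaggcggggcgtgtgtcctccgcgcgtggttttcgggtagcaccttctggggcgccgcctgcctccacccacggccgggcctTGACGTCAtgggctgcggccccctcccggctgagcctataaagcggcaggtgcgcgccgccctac
The HBEGF stretch, chr5:140346604-140346853 on the minus strand, holds none of the 5 motifs.
HBEGF: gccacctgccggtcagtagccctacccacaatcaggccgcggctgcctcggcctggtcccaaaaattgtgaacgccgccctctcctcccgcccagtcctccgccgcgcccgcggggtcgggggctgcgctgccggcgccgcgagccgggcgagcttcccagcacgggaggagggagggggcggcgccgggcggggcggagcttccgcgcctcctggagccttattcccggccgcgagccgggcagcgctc
The ERRFI1 stretch, chr1:8026310-8026559 on the minus strand, holds none of them either.
ERRFI1: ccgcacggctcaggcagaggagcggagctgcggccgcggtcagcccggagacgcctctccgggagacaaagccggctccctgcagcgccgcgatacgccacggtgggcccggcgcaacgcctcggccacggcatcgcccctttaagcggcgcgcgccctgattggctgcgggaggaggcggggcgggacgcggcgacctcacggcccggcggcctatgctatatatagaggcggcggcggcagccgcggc
Among the remaining windows, the first of TGFA has an NF-kB match from -219 to -210 (11.3% of all windows). A window of EGFR that starts 90818 bases from the start in the table has AP-1 matches from -232 to -226 and from -136 to -130. A window of LRIG1 that starts 95244 bases away has AP-1 matches from -166 to -160 and from -77 to -71 (7.71% of all windows hold the motif). No window of EREG matched. The EGR site, held by 9.43% of all windows, and the CArG box, held by 1.29%, matched in none of the 12. A match is a description of letters in a window and no measure of binding.

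The wider pathway was followed in 5 lists of 53 genes, of which 48 were tested. With DdBIC 13 of these rose, 11 fell and 24 were not called, where 20.0% of all tested genes were called higher and 17.2% lower, with a median log2 difference of 0.018 beside -0.0082 over all genes. Among 7 other EGF-family ligands, 4 were tested and 1 rose: NRG1, neuregulin 1, a ligand of ERBB3 and ERBB4, from a mean of 22.7 to 37.5 CPM (log2 0.72, SE 0.097, edgeR adjusted p = 0.000151). EGF itself was at 0.723 CPM in Ctrl and 1.16 CPM with DdBIC (log2 0.68, edgeR adjusted p = 0.0776). Of the other receptors, both that were tested fell: ERBB3, the receptor with a weak kinase, from 391 to 309.6 CPM (log2 -0.34, edgeR adjusted p = 0.000282), and ERBB2, which binds no known ligand, from 81.2 to 70.1 CPM (log2 -0.21, adjusted p = 0.0138). EGFR and these partners thus moved in opposite directions with DdBIC.

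In the list of 7 genes for release of membrane-bound ligands, 1 rose and 2 fell with DdBIC, so 3 of 7 were called where 37.2% of all tested genes were. ADAM17, the main protease that frees TGFA, AREG and HBEGF, rose from 62.5 to 75.7 CPM (log2 0.28, edgeR adjusted p = 0.000114). ADAM9, another protease, fell (log2 -0.21, edgeR adjusted p = 0.00123), as did the protease inhibitor TIMP3 (log2 -0.22, adjusted p = 3.97e-06). Of 18 adaptors and members of the RAS-ERK relay 3 rose and 4 fell, where 20.0% of all tested genes were called higher and 17.2% lower, shares close to those of the list. The kinase BRAF rose from 39.3 to 58.1 CPM (log2 0.56, edgeR adjusted p = 7.91e-07) and the RAS exchange factors SOS1 and SOS2 by log2 0.26 and 0.39 (adjusted p = 0.00352 and 0.0163). The adaptor GAB2 fell from 41.4 to 30.3 CPM (log2 -0.45, edgeR adjusted p = 0.000237). MAPK3, which encodes ERK1, PLCG1 and HRAS fell by log2 0.33, 0.30 and 0.23 (adjusted p = 0.00116, 0.0278 and 0.00949).

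Other negative regulators and receptor turnover genes, 17 tested of 18 listed, held 8 that rose and 3 that fell with DdBIC, where 20.0% of all tested genes were called higher and 17.2% lower. Their median log2 difference was 0.22, beside -0.0082 over all genes. SOCS5, a suppressor that promotes EGFR degradation, rose from 50.2 to 91.5 CPM (log2 0.87, edgeR adjusted p = 6.65e-08), and its relative SOCS4 rose by log2 0.64 (adjusted p = 0.000720). LRIG2 and LRIG3, paralogues of LRIG1, rose by log2 0.45 and 0.30 (edgeR adjusted p = 8.10e-06 and 0.00210), whereas LRIG1 was not called. The receptor-sorting genes USP8, STAM2 and HGS rose by log2 0.31, 0.28 and 0.22 (edgeR adjusted p = 0.000222, 0.00582 and 0.000537), and the phosphatase gene PTPN1 by 0.17 (adjusted p = 0.000236). NF1 and RASA1, which switch RAS off, and the phosphatase gene PTPRJ fell by log2 0.30, 0.14 and 0.13 (edgeR adjusted p = 0.0211, 0.0319 and 0.0145). CBL, the ubiquitin ligase of EGFR, was not called, with a log2 difference of 0.55 and an SE of 0.96.

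**Figure D4:**
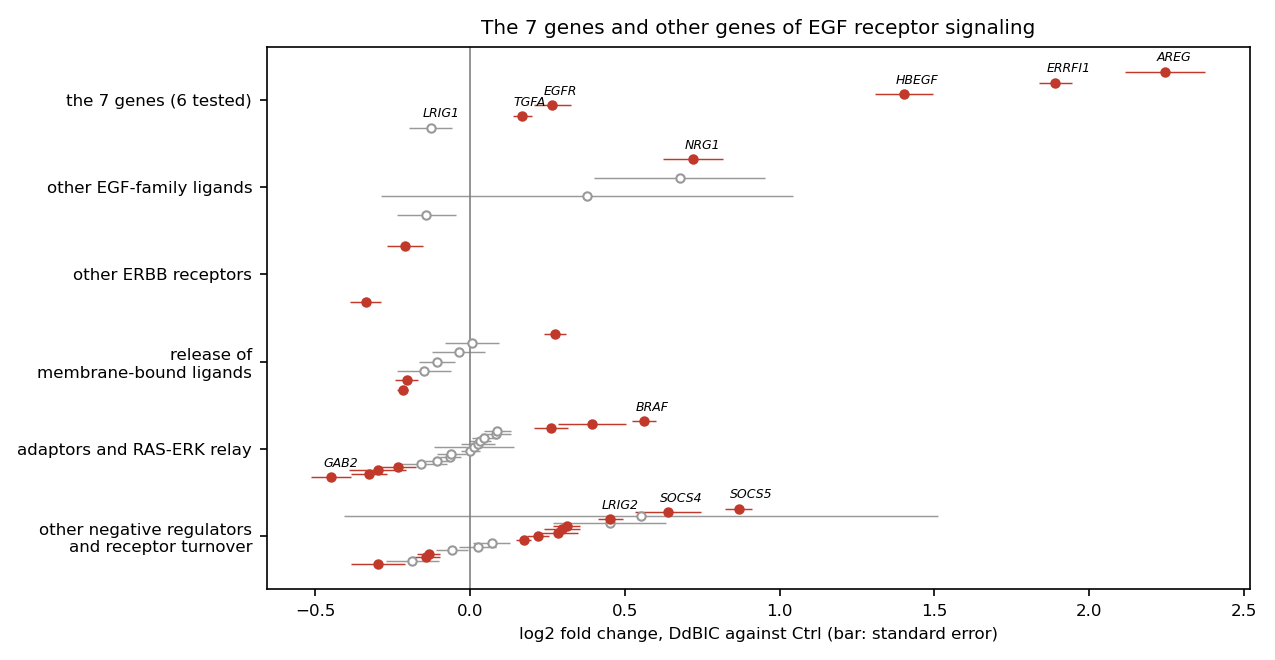
Log2 fold change of DdBIC against Ctrl with its SE for the tested members and for the tested genes of the 5 pathway lists, red and filled where the edgeR adjusted p was below 0.05. AREG, ERRFI1 and HBEGF lie above every listed gene, the highest of which is SOCS5 at 0.87, and the lists hold 13 genes called higher and 11 called lower.

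With hemin added to DdBIC, 5 of the 48 pathway genes were higher than with DdBIC alone, 11 were lower and 32 were not called, where 13.5% of all tested genes were called higher and 18.4% lower. SOCS5 fell by log2 0.70 (edgeR adjusted p = 5.27e-07) and LRIG2 by 0.44 (adjusted p = 1.40e-05), the direction of ERRFI1 in that comparison. BRAF fell by log2 0.53 (edgeR adjusted p = 1.85e-06) and NRG1 by 0.42 (adjusted p = 0.00602), the direction of HBEGF and AREG. The 5 that were higher, each of them lower with DdBIC than in Ctrl, were TIMP3 (log2 0.34, edgeR adjusted p = 1.67e-07), MAPK3 and HRAS (both 0.24, adjusted p = 0.00833 and 0.00900), ADAM9 (0.20, adjusted p = 0.00208) and GAB2 (0.19, adjusted p = 0.0423). ERBB3 kept its lower level (log2 -0.023 against DdBIC, edgeR adjusted p = 0.773) and was also lower with Hemin alone than in Ctrl (log2 -0.34, adjusted p = 0.00315). Hemin alone against Ctrl gave 0 called higher and 3 called lower of the 48, where 1.47% of all genes were called higher and 2.59% lower. In the interaction 2 were called higher and 6 lower, where 6.40% of all genes were higher and 10.2% lower, the former being ERBB3 at 0.32 (edgeR adjusted p = 0.00979) and TIMP3 at 0.31 (adjusted p = 1.28e-05), and the latter including NRG1 at -0.66 (adjusted p = 0.00695).

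The genes whose pattern over the 12 libraries lay nearest to each called member were found by the root mean square (RMS) difference of log2 CPM, each gene taken relative to its own Ctrl mean, among the 10678 tested genes that averaged 5 CPM or more. Nearest to HBEGF, whose own RMS departure from Ctrl was 0.79, were KCNJ12, a potassium channel gene, at 0.093, RCAN1, a calcineurin regulator, at 0.10, and PMAIP1, a pro-apoptotic BCL2 family gene, at 0.12. Nearest to AREG (own RMS 1.36) were the stress-response genes SESN2 at 0.14 and PPP1R15A at 0.22, and the secreted lipase inhibitor gene ANGPTL4 at 0.23. In the edgeR fit the log2 difference of SESN2 from Ctrl was 2.25 with DdBIC, 0.76 with Hemin and 1.21 with both. For AREG the same fit gave log2 differences of 2.25, 0.77 and 1.43 in the same order. Nearest to ERRFI1 (own RMS 1.01) were the cytokine gene CLCF1 at 0.12, the transcription factor gene KLF6 at 0.16 and ITPRIP at 0.18. For TGFA (own RMS 0.15) they were DOCK5 at 0.038, TTBK2 at 0.047 and ETV6 at 0.054, and for EGFR (own RMS 0.15) OXSR1 at 0.051, FBRSL1 at 0.054 and GSG2 at 0.055. The nearest genes of HBEGF, AREG and ERRFI1 were thus 9 different genes. This likeness rests on the 4 group levels of libraries that the genes share, and is given as a description.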

How the data were processed

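Total RNA of 12 A375 libraries in 4 groups of 3 was measured by RNA-seq. Per the labels and the submitters' processing notes, the authors used Trim Galore, Subread and featureCounts with hg38; versions, and whether counting used strand, were not given in the sources used here. The authors deposited 1 table with a count, an FPKM and a TPM value per gene and library. The deposited counts were tested as they stand, the deposited TPM served to set genes side by side, and the deposited FPKM were not used in a result.

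Groups were taken from the sample labels. Counts were filtered with filterByExpr, scaled by TMM (which also scales CPM) and fitted with edgeR 4.0.16 (limma 3.58.1, R 4.3.3) by robust quasi-likelihood, with 1 mean per group over all 12 libraries (8 residual degrees of freedom). Calls were made at a Benjamini-Hochberg adjusted p under 0.05 over 14287 genes. The SE is the absolute log2 difference divided by the square root of F, and intervals are 95%. The steps were tested on simulated counts. Alternatives were DESeq2 1.42.0, 2 other scalings, 2 other filters, fits restricted to the libraries being compared, a block for replicate number, and leaving out each library. Depth limits precision as 3 counts equal at most 0.0790 CPM. Intervals cover the spread between libraries, and the sources used here name no molecular identifiers.

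Genes named are the 7 members, HMOX1, the marker lists, pathway genes called in DdBIC against Ctrl and the 3 genes nearest to each called member (prior count 2 for log2 CPM). EGF and CBL, not called there, were named after their values were seen. The members and lists were chosen with earlier results of these data known. Positions come from the deposited table, overlaps from GENCODE 29 and promoter sequences from RefSeq GRCh38.p14. Protein sequences were not used here.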

Additional observations from a re-analysis of the deposited data

Results flagged for a closer look

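The DdBIC effect differed between cells without and with hemin for 3 of the members, by the test of the difference itself (edgeR quasi-likelihood interaction test, adjusted over all genes, of which 16.6% were called). HBEGF differed by -1.02 log2 units (adjusted p = 0.000323), from a log2 DdBIC effect of 1.40 without hemin to 0.39 with it. AREG differed by -1.58 (adjusted p = 0.000142), from 2.25 to 0.67. ERRFI1 differed by -1.06 (adjusted p = 4.00e-06), from 1.89 to 0.83. In each case all 3 DdBIC libraries lay above all 3 Ctrl libraries, and all 3 libraries with both agents above all 3 Hemin libraries. The groups did not overlap for 50.0% of all tested genes in the former comparison and for 26.3% in the latter.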

How the results depend on the processing

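Over 36 gene results and their alternatives, 660 of 678 pairs kept direction and side of the threshold, 8 lost the call, 1 gained it and 9 turned in sign, none of these 9 a called value. With only the groups compared in the fit, 1 member rather than 2 was called in Hemin against Ctrl, AREG being lost (log2 0.77, adjusted p = 0.0526). TGFA with both agents against Ctrl passed the threshold with library totals only (log2 -0.10, adjusted p = 0.0473). The sign turned for EGFR with both agents against Ctrl with library totals only (-0.0028). It also turned for TGFA in the interaction with DESeq2 (0.0065) and upper-quartile scaling (0.050). Leaving out each library in turn gave -0.010 to 0.054 for EGFR with both agents against Ctrl, -0.0032 to 0.089 for LRIG1 with both agents against Hemin, and -0.014 to 0.021 for TGFA in the interaction. The sign turned without Ctrl replicate 3 (-0.010) for EGFR, without DdBIC+Hemin replicate 2 (-0.0032) for LRIG1, and for TGFA without Ctrl replicate 1 (0.00036), Ctrl replicate 2 (0.0046), DdBIC replicate 1 (0.021) or DdBIC+Hemin replicate 1 (0.0067). The number of members called stayed at 5 with DdBIC against Ctrl and at 3 in the interaction, and ran from 3 to 4 for both agents against Hemin, HBEGF being the gene lost. The cause was not tested. Over the 19 alternatives the DdBIC log2 difference ran from 2.16 to 2.35 for AREG, 1.83 to 1.94 for ERRFI1, 1.31 to 1.5 for HBEGF, 0.20 to 0.30 for EGFR and 0.11 to 0.18 for TGFA, each called throughout. Over all genes, upper-quartile scaling changed the split of calls, with 2310 of 5782 called higher in DdBIC against Ctrl where the TMM fit had 2859 of 5310, 2948 of 4980 where it had 1933 of 4559 when hemin was added to DdBIC, and 1497 of 2700 where it had 914 of 2376 in the interaction. With library totals only, 646 of 1876 were called higher with both agents against Ctrl where the TMM fit had 808 of 1771, and 421 of 996 where it had 530 of 971 against Hemin.

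The labels name no batch or culture shared by replicate number, and the rule for pairing, a correlation over 0.1 in every pair, was not met: the deviations of same-numbered libraries correlated at -0.046 to 0.081 over 18 pairs, 0 of them over 0.1, and 8 of 12 libraries correlated best with their own number, which is a hint of pairing from the data and not from the design. With the replicate block the members called numbered 5, 5, 2 and 3 as before and 3 rather than 4 for both agents against Hemin, where HBEGF was lost (log2 0.39, adjusted p = 0.0544), and 3 in the interaction. The block changed no other call among the members.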

Other observations

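Low counts in the table were more often even than odd. Of counts from 1 to 19, 65.9% were even, beside 50.1% of counts of 100 and above, and the EREG count was even in 12 of 12 libraries. Whether both reads of a pair were counted was not tested. If they were, the counts of EREG and AREG and the limit of 3 counts would stand for fewer fragments than their number. CBL, the ubiquitin ligase gene, ran from 26.6 to 133 CPM over the 12 libraries, with an SE of 0.96 for its DdBIC difference.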
